A study of Mus musculus with 9 samples.

Results

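The BCL2 family genes considered here are 9 genes that set the threshold of mitochondrial cell death: Bcl2, Bcl2l1, Mcl1, Bax, Bak1, Bcl2l11, Bid, Bmf and Bbc3. They were chosen by name, all 9 were found among 22225 protein-coding gene symbols of the mouse mm9 annotation, and all 9 carried H3K27ac islands in both genotypes. H3K27ac, acetylation of lysine 27 on histone H3, marks active enhancers and promoters, and its ChIP-seq signal was mapped in naive CD8+ T cells with and without the transcription factors Tcf1 and Lef1. The series held 9 samples, with 4 H3K27ac samples of WT cells, 3 of Tcf1/Lef1-deficient (dKO) cells and 1 input of each genotype, and the inputs were not analysed here.

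WT cells came from hCD2-Cre+ Rosa26-GFP mice with intact Tcf7 and Lef1 alleles, and dKO cells from mice in which both genes were floxed (Tcf7 fl/fl and Lef1 fl/fl) beside the same hCD2-Cre and Rosa26-GFP alleles. All were young adults of both sexes on a C57BL/6 background, and both groups carried the Cre transgene and the GFP reporter. GFP+ CD62L-high, CD44-low to medium CD8+ T cells were sorted from spleens. Sorting on GFP selects cells with Cre activity, since recombination by hCD2-Cre is incomplete. For each genotype the deposited data are a list of islands (stretches of enriched signal) that was called after pooling the replicates and gives each island's read count. Every value below is therefore 1 number per genotype, with no spread between replicates and no test, and the intervals in parentheses are 95% counting intervals, which cover counting error only.

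The BCL2 family acts at the outer mitochondrial membrane. Bcl2, Bcl-xL (the product of Bcl2l1) and Mcl1 keep cells alive by restraining Bax and Bak, the effectors that open the membrane and release cytochrome c. The BH3-only proteins Bim (Bcl2l11), Bid, Bmf and Puma (Bbc3) relay death signals by engaging the survival proteins, the effectors or both. Naive T cells are known to depend on IL-7 and T cell receptor signals that maintain Bcl2 and Mcl1, and Bim is a main mediator of their death when those signals fail.

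The promoters below are the 250 bases before the 5′-most annotated transcription start site (TSS) of 4 members, read 5′ to 3′ in the direction of transcription from the mm9 genome. They are shown because the islands over these 4 promoters differed most in extent between the genotypes. Capitals mark CpG dinucleotides at Bcl2, Bcl2l1 and Bbc3, and the TCF/LEF match CTTTGAA at Bax.

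Bcl2 (chr1:108610852-108611101, minus strand): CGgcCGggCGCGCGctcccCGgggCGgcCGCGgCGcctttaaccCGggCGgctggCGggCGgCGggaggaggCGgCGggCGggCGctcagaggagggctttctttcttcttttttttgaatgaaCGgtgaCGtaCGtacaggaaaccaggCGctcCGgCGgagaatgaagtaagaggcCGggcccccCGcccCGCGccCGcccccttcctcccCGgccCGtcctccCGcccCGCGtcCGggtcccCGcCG

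Bcl2l1 (chr2:152657465-152657714, minus strand): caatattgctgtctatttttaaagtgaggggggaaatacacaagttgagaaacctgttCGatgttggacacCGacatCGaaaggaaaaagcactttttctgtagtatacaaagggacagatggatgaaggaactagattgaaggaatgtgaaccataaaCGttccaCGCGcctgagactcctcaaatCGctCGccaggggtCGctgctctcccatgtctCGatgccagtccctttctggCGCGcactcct

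Bbc3 (chr7:16894715-16894964, plus strand): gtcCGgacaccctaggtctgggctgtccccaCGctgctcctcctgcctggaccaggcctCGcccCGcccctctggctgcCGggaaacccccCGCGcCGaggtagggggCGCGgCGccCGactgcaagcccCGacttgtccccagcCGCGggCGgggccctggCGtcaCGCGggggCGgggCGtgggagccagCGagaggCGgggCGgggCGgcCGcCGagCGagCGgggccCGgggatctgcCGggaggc

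Bax (chr7:52722269-52722518, minus strand): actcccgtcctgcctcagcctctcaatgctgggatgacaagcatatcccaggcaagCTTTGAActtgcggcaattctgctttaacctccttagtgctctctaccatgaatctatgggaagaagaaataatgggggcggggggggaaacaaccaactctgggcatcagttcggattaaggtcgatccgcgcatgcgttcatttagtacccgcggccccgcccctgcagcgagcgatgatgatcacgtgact

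The 4 sequences differ in base composition. The Bcl2 promoter was 74.8% G and C with 38 CpG dinucleotides, the Bbc3 promoter 80.0% with 31, the Bax promoter 54.0% with 14 and the Bcl2l1 promoter 47.6% with 12. The ratio of observed to expected CpG was 1.09 at Bcl2 and 0.15 at Bak1, the highest and lowest of the 9 members, and its median was 0.77 over the members against 0.50 over 22220 protein-coding promoters.

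Motif letters were searched on both strands of the same 250 bases. The TCF/LEF letters CTTTGAA or CTTTGAT were found in 7.15% of all promoters and, among the 9 members, at Bax, where the match starts 194 bases before the TSS. The ETS letters CCGGAAG, found in 8.22% of all promoters, occurred at Bcl2l11 and Mcl1, 105 and 63 bases before the TSS. The RUNX letters TGTGGTT, found in 4.17% of all promoters, occurred at none of the 9. Islands were also cut into 200-bp windows, for the members only in the gene body and the 50 kb upstream. There, 6.60% of WT windows and 6.63% of dKO windows held the TCF/LEF letters. Over all islands of each list the shares were 7.49% and 7.32%. These shares are descriptions of letters and say nothing of binding.

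The WT list held 65563 islands with 82668007 counts over 393 Mb, and the dKO list 82213 islands with 57665047 counts over 429 Mb. The dKO list thus had more islands, and fewer raw counts per kb, 134 against 210.5. That is a log2 ratio of -0.65 for the lists as they stand, and of -0.13 after scaling to list totals. Counts were divided by the island total of their list, which gives CPM (island counts per 1000000 counts of the list), and a log2 ratio of dKO to WT is given. Since islands differ in extent, each log2 count ratio was also split into a log2 width ratio (covered kb) and a log2 depth ratio (scaled counts per covered kb), which add up to it. A ratio of at least 1.5 in either direction was called past the threshold. H3K27ac cannot check the deletion itself, and the islands of the targeted genes remained, with log2 window ratios of 0.17 at Tcf7 and -0.30 at Lef1. All 9 markers of CD8+ T cells had promoter islands in both lists, as did both CD4 T cell markers, 4 of 5 B cell, 1 of 3 NK cell, 4 of 5 myeloid and 1 of 2 erythroid markers. Summed over their windows, CD8+ T cell markers held 2927 CPM in WT and 2412 in dKO and CD4 T cell markers 260 and 325. An island shared by neighbouring markers, as at Cd8a and Cd8b1 or at Cd3d and Cd3g, is counted for each of them, which raises the CD8+ T cell sum. B cell markers held 618 and 720 CPM, NK cell markers 164 and 196, myeloid markers 528 and 510, and erythroid markers 15.6 and 8.03, and the part of such cells in the values below was not tested. In these bulk libraries, a change within the cells and a change in the mix of cells cannot be told apart. Ncr1, Siglech and Hbb-b1 had no island in either list.

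Each gene was given the islands that touch its body or the 50 kb upstream of its TSS. Over these windows the members as a group moved little. Their median log2 count ratio was 0.15, against -0.03 over the 16385 protein-coding genes that had islands in each list, and 7 of the 9 were above 0. Only Bax passed the threshold, with the higher value in dKO, where 11.5% of all genes passed in that direction. No member passed it with the higher value in WT, where 11.5% of all genes did. By depth the median of the members was -0.06 against -0.16 over all genes, and 0 of 9 passed in either direction, against 0.421% of genes with higher depth in dKO and 9.26% with higher depth in WT.

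By window counts the members can be set out by role. The 3 pro-survival genes had log2 ratios of -0.21 to 0.01, and the 6 pro-apoptotic genes had 0.13 to 1.23, all above 0, where 47.4% of all genes were above 0. The members were grouped by role with these values known. The width ratios of the 6 pro-apoptotic genes were also all above 0, at 0.14 to 1.33, where 65.1% of all genes were. By depth, 2 of the 6 pro-apoptotic and 1 of the 3 survival genes were above 0, where 20.6% of all genes were. The split by counts did not hold with islands clipped to the window, where 2 of 3 survival genes were above 0 and Mcl1, at 0.19, exceeded Bcl2l11 and Bbc3. Nor did it hold at 100 kb upstream, where 2 of 3 survival genes were above 0 and Bmf was at -0.35. It also failed for the gene body alone, where Bid (-0.18) and Bak1 (-0.15) lay below Mcl1 (-0.09). For promoter islands Bid (-0.18) lay below Mcl1 (-0.09). For islands whose midpoint is nearest to the member, Bax was at -2.34. That value sets the WT promoter island of 1324 counts against a dKO island of 182 counts. The dKO promoter island of 2712 counts has its midpoint nearer to another gene and was left out. The value is therefore no measure of the Bax promoter.

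**Figure D1:**
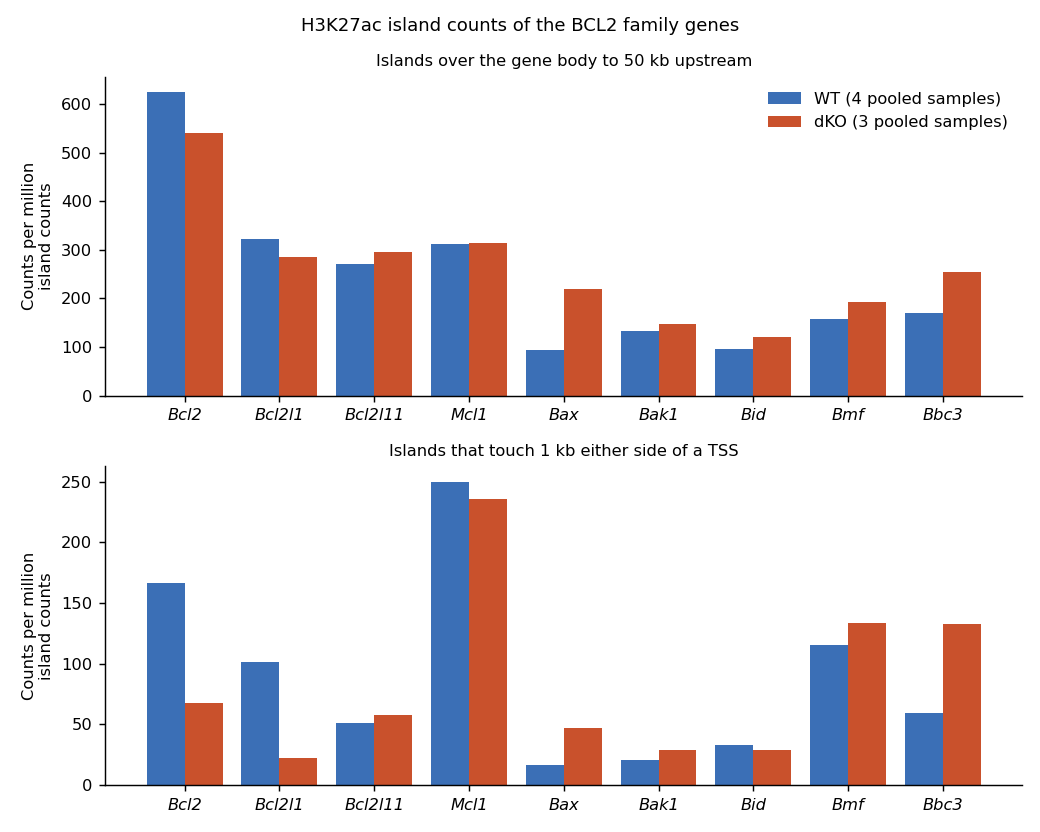
Island counts in CPM of each member in the WT list (blue, 4 pooled samples) and the dKO list (orange, 3 pooled samples), over the gene body to 50 kb upstream in the upper panel and over promoter islands in the lower one; each bar is 1 pooled value without an error bar. Bax has 93.5 against 219 in the upper panel, while Bcl2 and Bcl2l1 have their largest relative gap in the lower one.

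Among the survival genes, Bcl2 (chr1:108434755-108610851, minus strand) carried acetylation over nearly its whole 176-kb body. WT islands covered 92.3% of the body and dKO islands 90.4%. The window held 14 islands with 51580 counts over 191.4 kb in WT and 15 islands with 31113 counts over 191.6 kb in dKO, or 624 and 540 CPM. The log2 count ratio was -0.21 (-0.23 to -0.19), with a width ratio of 0.00 and a depth ratio of -0.21, beside a median depth ratio of -0.16 over all genes. The extent of acetylation at Bcl2 was thus nearly equal in the lists, and the lower dKO count lay in depth.

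The border of the Bcl2 promoter island moved more than the sum. In WT 1 island ran without a break from 5.95 kb upstream to 39.9 kb inside the gene, 45.8 kb wide with 13745 counts, the most of any WT island of the gene. In dKO the promoter island was 17.4 kb wide with 3890 counts and ended 11.5 kb inside the gene, and 3 further islands of 8.8, 6.4 and 10.8 kb followed it. The promoter log2 count ratio was -1.30 (-1.35 to -1.25), of which width made up -1.40, and depth was 0.09. Summed over the merged region that holds the TSS, the 4 dKO islands had 7476 counts, with a log2 ratio of -0.36 (-0.40 to -0.32). The large promoter ratio at Bcl2 therefore reflects where islands were split, and a smaller deficit remained over the same stretch.

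The other regions of the Bcl2 window ranged from close to widely apart. The largest gap was 27.7 to 22.9 kb upstream, where 1 WT island had 550 counts over 4.8 kb and 1 dKO island of 1.2 kb had 127 counts. That gives -1.59 (-1.87 to -1.32) on the log2 scale, with a width ratio of -2.00 and a depth ratio of 0.41. The dKO island with the most counts, 7420 over 52.2 kb near the 3′ end, faced 3 WT islands with 12620 counts, with a log2 ratio of -0.25 (-0.29 to -0.21). An intronic island 92.3 to 120 kb inside the gene had almost the same borders in both lists, with 10126 counts in WT and 6995 in dKO, and a log2 ratio of -0.01 (-0.06 to 0.03). The dKO list had 1 island of its own in the window, 7.2 kb wide with 583 counts, from 35.5 to 28.3 kb upstream. It lay directly beside the region with the largest gap, so that gap does not describe the whole stretch. Its 81.0 counts per kb lay below the 134 of the dKO list as a whole. The TSS of Kdsr also lay in the window.

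Bcl2l1 (chr2:152593052-152657464, minus strand), which encodes Bcl-xL, showed the same splitting in a more marked form. The window held 10 islands with 26673 counts over 137 kb in WT and 15 islands with 16440 counts over 116 kb in dKO, or 323 and 285 CPM. Its log2 count ratio was -0.18 (-0.21 to -0.15), with a width ratio of -0.24 and a depth ratio of 0.06. By whole islands this was the only member with a narrower footprint in dKO. Inside the window, WT islands covered 89.0% and dKO islands 85.5% at Bcl2l1. At Bcl2l11 the dKO share was also lower, 89.6% against 90.5%. When each island was counted only for its part inside the window, the Bcl2l1 log2 count ratio was 0.003.

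At the Bcl2l1 promoter, the WT island spanned 37.4 kb, from 4.34 kb upstream to 33.1 kb inside the gene, with 8352 counts. The dKO promoter island spanned 6.2 kb with 1272 counts. Its log2 count ratio of -2.195 (-2.28 to -2.11) was the lowest of the 9 members, whereas its depth ratio was 0.40 (0.31 to 0.48), the highest. Small dKO islands followed in the gene body, 3 of them with 65 to 242 counts, before islands of 13.6 and 6 kb. Over the merged region of 109.8 kb that holds the TSS, 3 WT islands had 22349 counts and 11 dKO islands had 14911, a log2 ratio of -0.06 (-0.09 to -0.03). That region also holds the TSS of Id1 and Cox4i2. The island with the most counts in either list lay at the 3′ side and reached past the gene, with 13356 counts in WT and 7888 in dKO. Thus the amount of acetylation over the Bcl2l1 region was close in the lists while its division into islands was not.

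**Figure D2:**
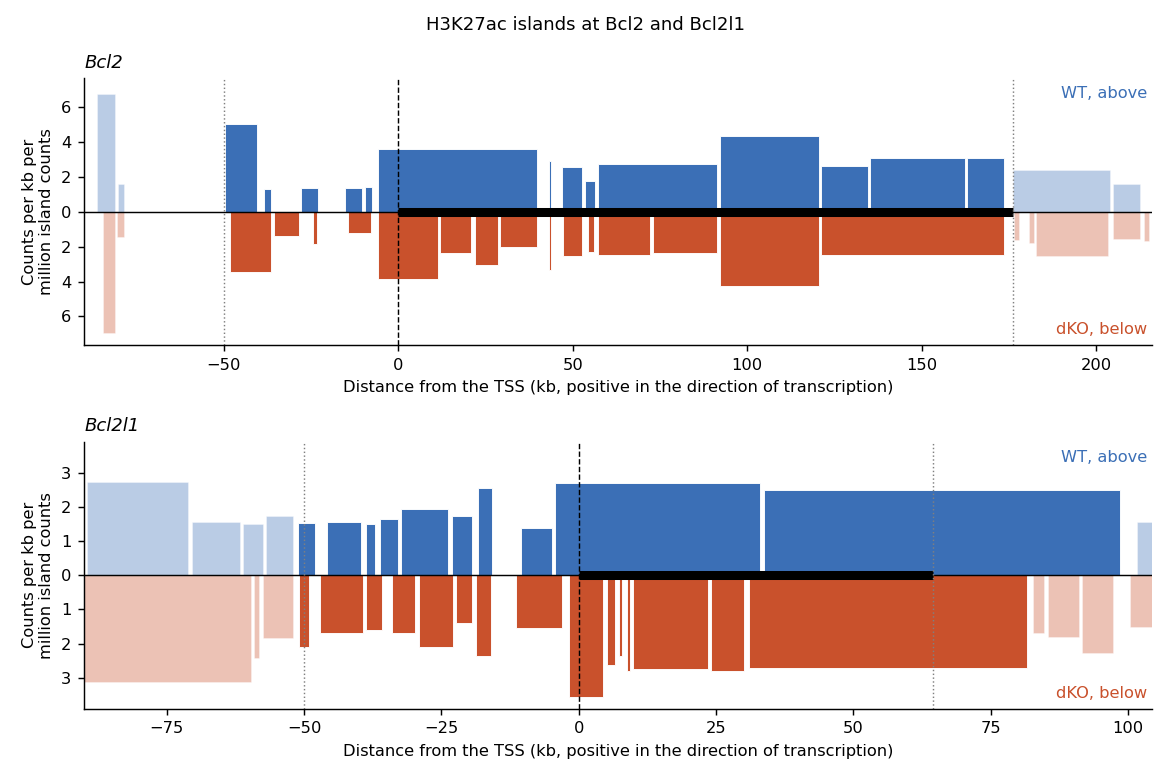
Islands at Bcl2 and Bcl2l1, with distance from the TSS in kb on the x axis and CPM per kb as bar height, WT above the line and dKO below it. The black bar is the gene body, dotted lines are the window ends, pale bars lie outside the window, and the single WT island over each TSS faces 4 dKO islands at Bcl2 and a run of shorter ones at Bcl2l1.

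Mcl1 (chr3:95462643-95467099, plus strand) is a short gene inside a broad acetylated domain. The window held 5 islands in each list, with 25795 counts over 79.6 kb in WT and 18068 over 90.8 kb in dKO, or 312 and 313 CPM. Its log2 count ratio of 0.01 (-0.02 to 0.03) was the closest to 0 of the 9 members, with a width ratio of 0.19 and a depth ratio of -0.18. The promoter island was the island with the most counts in both lists and had nearly the same borders, 55.4 kb with 20674 counts in WT and 57.4 kb with 13573 counts in dKO, and a log2 ratio of -0.09 (-0.12 to -0.06). In both lists it also covered the TSS of Adamtsl4. The dKO list had 2 further islands that no WT island touched, of 107 and 493 counts, more than 39 kb upstream. Per covered kb, Mcl1 had the highest window level of the 9 members in both lists, 3.92 CPM per kb in WT and 3.45 in dKO.

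Bax and Bak1 encode the membrane-permeabilizing effectors. At Bax (chr7:52717065-52722268, minus strand) the window held 5 islands with 7733 counts over 32.4 kb in WT and 7 islands with 12623 counts over 81.2 kb in dKO, or 93.5 and 219 CPM. The log2 count ratio of 1.23 (1.19 to 1.27) was the highest of the members, with a width ratio of 1.33 and a depth ratio of -0.10. Much of that difference came from 1 island at the window edge. In dKO an island of 30 kb with 5102 counts began 46.3 kb upstream of the TSS and ran to 76.3 kb, so that most of it lay outside the window, and the WT islands over the same stretch were split at about the edge. When each island was counted only for its part inside the window, the Bax ratio was 0.34, and over whole merged regions it was 0.06. That edge island covers the TSS of Plekha4, Ppp1r15a and Tulp2.

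The promoter island of Bax widened. In WT it spanned 2.8 kb, from 0.932 kb upstream to 1.87 kb inside the gene, with 1324 counts, and in dKO it spanned 15.4 kb with 2712 counts and extended over the neighbouring Ftl1. The promoter log2 count ratio was 1.55 (1.46 to 1.65) with a width ratio of 2.46 and a depth ratio of -0.91 (-1.0001 to -0.8106). In WT the same 15.4 kb held 2 islands with 3385 counts, which gives a log2 ratio of 0.20 (0.13 to 0.27) over the merged region. The WT island was thus narrow and deep, and the single dKO island spanned it, its neighbour and the gap between them. WT islands covered 35.9% of the Bax body and dKO islands all of it. A dKO island without a WT counterpart, 2 kb with 182 counts, lay 6.13 to 4.13 kb upstream. In WT the island with the most counts, 3323 over 9.2 kb, lay 44.5 to 35.3 kb upstream over the TSS of Nucb1.

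Bak1 (chr17:27156755-27165954, minus strand) had 5 islands with 10948 counts over 48 kb in WT and 3 islands with 8449 counts over 54 kb in dKO, or 132 and 147 CPM. By counts this was a log2 ratio of 0.15 (0.10 to 0.19), with a width ratio of 0.17 and a depth ratio of -0.02. Its promoter island was 5.6 kb with 1707 counts in WT and 11.6 kb with 1646 counts in dKO, with log2 ratios of 0.47 (0.37 to 0.56) by counts and -0.58 (-0.68 to -0.49) by depth, the latter just short of the threshold. The promoter islands of Bak1 also cover the TSS of Ggnbp1. The island with the most counts lay upstream, over the TSS of Itpr3, with 4629 counts in WT and 5395 in dKO, so part of the Bak1 window belongs to a neighbouring promoter.

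**Figure D3:**
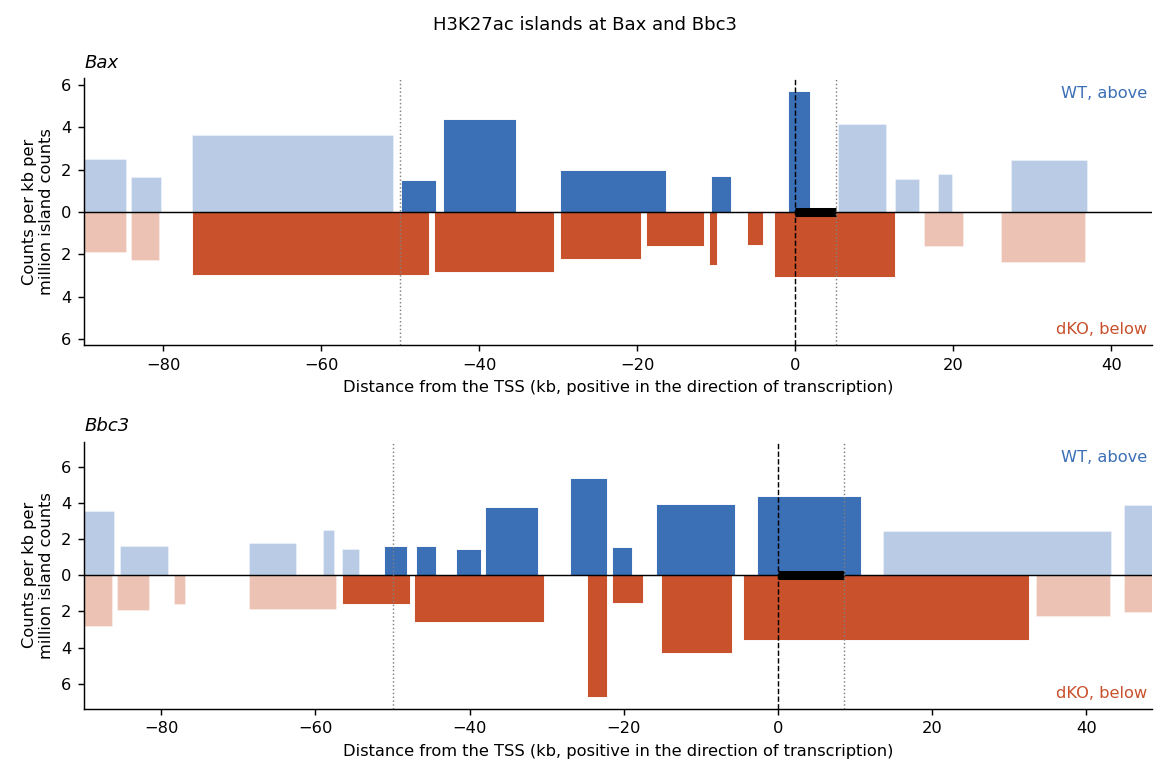
Islands at Bax and Bbc3, drawn as distance from the TSS in kb against CPM per kb, WT above the line and dKO below it. The black bar is the gene body and dotted lines are the window ends; over both promoters the dKO island is wider and lower than the WT island, and at Bax a dKO island of 30 kb crosses the upstream window end.

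Among the BH3-only genes, Bbc3 (chr7:16894965-16903554, plus strand), which encodes Puma, came nearest to the threshold. The window held 8 islands with 14025 counts over 46.8 kb in WT and 6 islands with 14603 counts over 78.6 kb in dKO, or 170 and 253 CPM. Its log2 count ratio was 0.58 (0.54 to 0.61), a ratio of 1.49, with a width ratio of 0.75 and a depth ratio of -0.17. The promoter island, the one with the most counts in both lists, spanned 13.6 kb with 4932 counts in WT and 37.2 kb with 7661 counts in dKO, running to 32.6 kb past the TSS. By counts the promoter log2 ratio was 1.155 (1.103 to 1.207), and by depth it was -0.30 (-0.35 to -0.25). Over the merged region of 47.8 kb, with 2 islands in each list, it was 0.22 (0.18 to 0.26), and counted only inside the window the gene's ratio was -0.01. The higher Bbc3 count in dKO therefore lay largely in how far the promoter island reached downstream of the gene. An upstream island 15.8 to 5.56 kb before the TSS had similar borders in both lists, with 3338 counts in WT and 2268 in dKO and a log2 ratio of -0.04 (-0.11 to 0.04). An island over the TSS of Ccdc9, ending 22.2 kb upstream, was the deepest of the window in both lists, with 5.40 CPM per kb in WT and 6.72 in dKO. It was 4.8 kb with 2144 counts in WT and 2.6 kb with 1007 counts in dKO, a log2 ratio of -0.57 (-0.68 to -0.46), the lowest of the window's regions.

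Bcl2l11 (chr2:127951774-127988283, plus strand), which encodes Bim, had islands over most of its window in both lists. The window held 7 islands with 22309 counts over 85 kb in WT and 10 islands with 17055 counts over 97.2 kb in dKO, or 270 and 296 CPM. By counts the log2 ratio was 0.13 (0.10 to 0.16), with a width ratio of 0.19 and a depth ratio of -0.06. Its promoter island had identical borders in both lists, 6.8 kb from 3.77 kb upstream to 3.03 kb inside the gene, with 4218 counts in WT and 3336 in dKO and a log2 ratio of 0.18 (0.12 to 0.25). Per kb this was the deepest promoter island of the 9 members, at 7.503 CPM per kb in WT and 8.508 in dKO, above 90.7% and 97.9% of genes with promoter islands. The gene body island was 30.8 kb with 6417 counts in WT and 28.2 kb with 4959 counts in dKO, with a log2 ratio of 0.15 (0.09 to 0.20), and in dKO it had the most counts of the window. The WT island with the most counts, 7752 over 26.2 kb, began 29.6 kb upstream, and its merged region had a log2 ratio of -0.29 (-0.33 to -0.24). The largest gap lay nearer the promoter, 9.37 to 4.37 kb upstream, where an island of 615 counts in WT faced one of 295 in dKO, a log2 ratio of -0.54 (-0.74 to -0.34). In that last region the gap lay in width, at -0.74, while depth was 0.20. Another upstream region, 24.0 to 9.97 kb before the TSS, had a log2 count ratio of 0.16 (0.07 to 0.24). So counts at Bcl2l11 were slightly higher in dKO at the promoter and in the gene, and differed in direction between upstream regions. A dKO island of 1.2 kb with 143 counts, 4.83 kb inside the gene over an exon, had no WT counterpart. No TSS of another protein-coding gene lay in the window.

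Bmf (chr2:118354493-118375423, minus strand) had 7 islands with 13074 counts over 65.2 kb in WT and 8 islands with 11097 counts over 71.6 kb in dKO, or 158 and 192 CPM. The log2 count ratio was 0.28 (0.25 to 0.32), made up about equally of width at 0.14 and depth at 0.15. That depth ratio was the highest of the 9 windows and exceeded 93.8% of genes. The promoter island covered the whole gene in both lists, 40.6 kb with 9513 counts in WT and 38 kb with 7688 counts in dKO, with a log2 count ratio of 0.21 (0.17 to 0.26) and a log2 depth ratio of 0.31 (0.26 to 0.35). Over the merged region of 84.2 kb that holds the TSS, the log2 ratio was 0.20 (0.17 to 0.23) by counts and 0.13 by depth. That region also holds the TSS of Srp14. Acetylation at Bmf was thus deeper in dKO, by less over this region than over the promoter island. One dKO island had no WT counterpart, 3.2 kb with 255 counts between 33.8 and 30.6 kb upstream.

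An intron of Bmf holds the 1 position in the 9 windows that the study listed among its sites of changed chromatin accessibility linked to a member. The study placed this site in its cluster of sites with increased accessibility in dKO that were linked to genes it defined as Tcf1/Lef1-repressed. The site lies 8.62 kb inside the gene, at chr2:118366681-118366800, within the promoter island. The 200-bp window of the island caller that contains it is given as the base-level view of the site, on the plus strand of mm9, with the AP-1 letters TGACTCA in capitals. These letters were searched for after the sequence had been seen.

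Bmf intron (chr2:118366601-118366800): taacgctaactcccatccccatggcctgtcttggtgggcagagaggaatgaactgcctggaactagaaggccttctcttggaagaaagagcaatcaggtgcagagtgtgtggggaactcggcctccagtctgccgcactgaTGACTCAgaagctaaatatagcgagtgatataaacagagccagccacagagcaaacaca

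The letters TGACTCA were found in 3.68% of the 200-bp windows of all WT islands and 3.70% of those of dKO islands. In the parts of the members' islands inside the gene body to 50 kb upstream, the shares were 4.05% and 4.10%. The TCF/LEF letters did not occur in the Bmf window. Because the island spans the whole gene, its count cannot be assigned to this site.

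Bid (chr6:120841948-120866871, minus strand) had 5 islands with 7864 counts over 46 kb in WT and 4 islands with 6913 counts over 54.4 kb in dKO, or 95.1 and 120 CPM. The Bid log2 count ratio was 0.33 (0.29 to 0.38), with a width ratio of 0.24 and a depth ratio of 0.09. The promoter island, which held the most counts in WT, was 9.6 kb with 2691 counts there and 8.4 kb with 1661 counts in dKO, a log2 ratio of -0.18 (-0.26 to -0.09). In dKO a second island of 383 counts adjoined it, and the merged region gave 0.12 (0.04 to 0.21). The higher window count in dKO came from upstream, where an island of 39.2 kb with 4720 counts faced 4 WT islands. With the smaller island next to it, that region held 4869 counts in dKO and 5173 in WT, a log2 ratio of 0.43 (0.38 to 0.49), and it includes the TSS of Mical3. Per covered kb, Bid had the lowest window level of the members in both lists, 2.068 CPM per kb in WT and 2.204 in dKO.

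Across the 9 promoters, 1 island in each list touched the kb on either side of a TSS. By counts 2 promoters passed the threshold with the higher value in dKO, Bax and Bbc3, against 13.1% of 13484 genes with promoter islands in both lists, and 2 passed with the higher value in WT, Bcl2 and Bcl2l1, against 19.9%. By depth 0 passed with the higher value in dKO, against 2.12% of genes, and 1, Bax, with the higher value in WT, against 17.4%. The width ratio at the 4 promoters past the threshold by counts had the same sign as the count ratio, and the depth ratio had the opposite one. When the merged region holding each TSS was used, none of the 9 passed. The 3 survival genes then had ratios of -0.36 to -0.06 and the 6 pro-apoptotic genes 0.12 to 0.25, and no share over all genes is given for these regions. By depth of the promoter islands, 2 of 3 survival genes and 3 of 6 pro-apoptotic genes were above 0, where 28.0% of all genes were. This use of merged regions was chosen after the data had been seen.

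**Figure D4:**
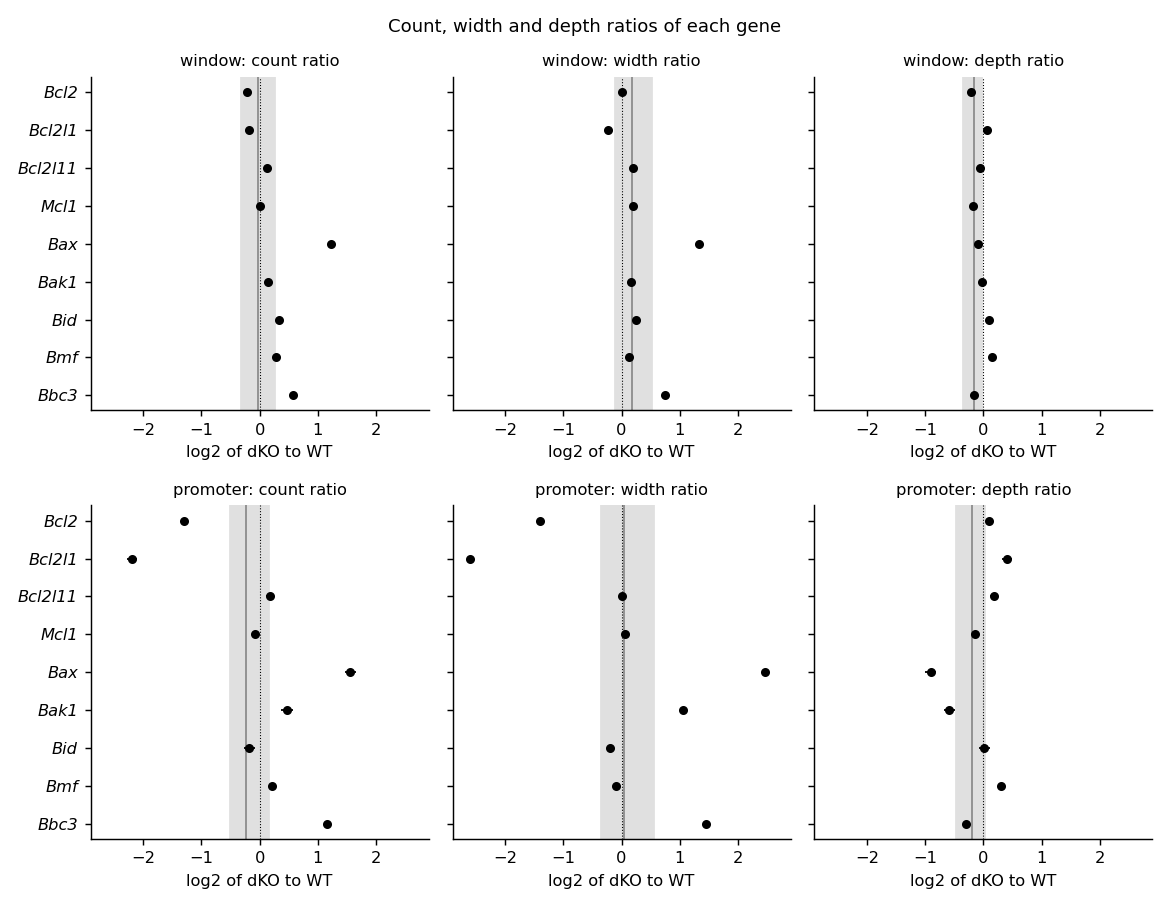
The log2 ratio of dKO to WT of each member by counts, by covered width and by depth, for windows in the upper row and promoter islands in the lower row; horizontal bars are 95% counting intervals where drawn, the grey band is the range between the quartiles of all genes and the grey line their median. Promoter count and width ratios of Bcl2, Bcl2l1, Bax and Bbc3 lie far from 0 in the same direction, while window depth ratios lie within -0.21 to 0.15.

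A comparison with smaller border changes used island pairs that overlap each other by at least 90% both ways. The members had 9 such pairs, 4 at Bcl2l11, 2 at Bcl2 and 1 each at Mcl1, Bmf and Bbc3. Their log2 count ratios ran from -0.11 to 0.21 with a median of -0.01, beside a median of -0.05 over 8206 pairs genome-wide. None of the 9 passed the threshold, against 0.475% of all pairs with the higher value in dKO and 3.39% with the higher value in WT. Widths still differed within pairs, as with 30.8 kb in WT and 28.2 kb in dKO in the gene body of Bcl2l11. By depth the Bcl2l11 pair that starts 24.0 kb upstream went from 0.16 to 0.03 and the Bbc3 pair from -0.04 to 0.11. By counts 4 of the 9 pairs were above 0, 3 at Bcl2l11 and that of Bmf, where 41.8% of all pairs were. The intervals of these 4 lay above 0 and that of the Mcl1 pair below it. No share over all pairs is given for intervals, so that count cannot be set beside one. The spread between mice behind these ratios is not known.

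**Figure D5:**
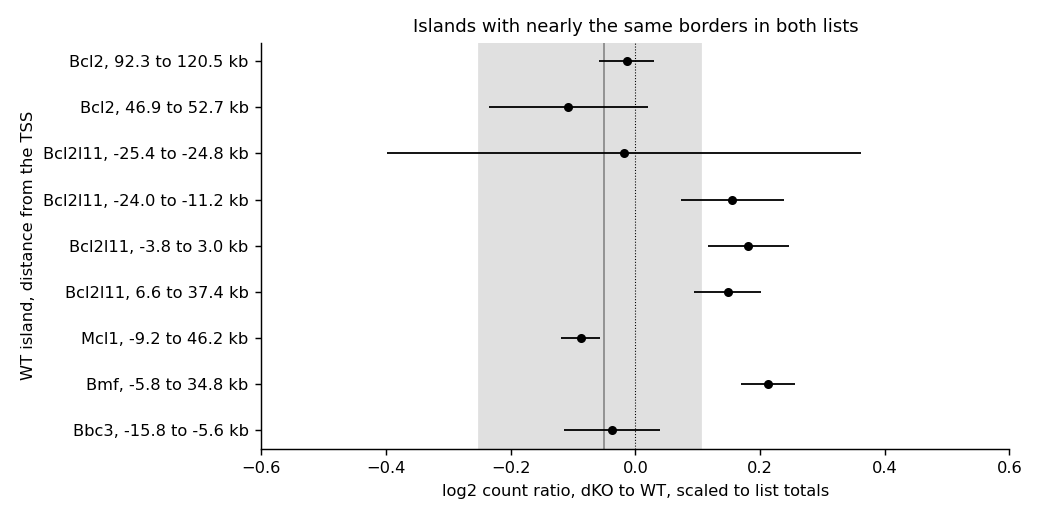
The log2 count ratio of dKO to WT for the 9 island pairs of the members with nearly equal borders, each named by the distance of the WT island from the TSS in kb; horizontal bars are 95% counting intervals, and the grey band and line are the range between the quartiles and the median of all such pairs. All 9 points lie between -0.11 and 0.21.

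Nearly all islands of the members were found in both lists. All 66 WT islands in the 9 windows touched a dKO island (100%, 94.5 to 100, Wilson interval), against 85.1% of all WT islands. Of 73 dKO islands 67 touched a WT island (91.8%, 83.2 to 96.2), against 73.8% of all dKO islands. Neighbouring islands are not independent and wide islands are touched more readily, so these shares are descriptions. The 6 dKO islands without a WT counterpart, at Bcl2, Bcl2l11, Mcl1, Bax and Bmf, held 107 to 583 counts each, with 2 of them at Mcl1.

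The TSS of all 9 members lay in a super enhancer of both lists. Super enhancers, clusters of enhancers with high H3K27ac, were defined by joining islands no farther apart than the default distance of the ROSE method and ranking the joined regions by counts with no input subtracted, which gave 1138 in WT and 973 in dKO. Among all protein-coding genes 20% had their TSS in one in WT and 25.7% in dKO, and among genes with promoter islands in both lists 32% and 40.4% did. The stitched region of Bcl2l11 ranked 18 in WT and 30 in dKO, ahead of the other members. In WT and dKO, Bcl2 ranked 163 and 320, Mcl1 386 and 379, Bcl2l1 435 and 405, and Bak1 540 and 525. Ranks come from lists of unequal length (14376 and 12919 stitched regions) and depend on the stitching, since with islands joined within 20 kb Bcl2 ranked 245 in WT and 118 in dKO. These regions run over many genes, and when islands were stitched within 5 kb, 6 of 9 members remained in one in WT, without Bax, Bak1 and Bid, while all 9 did in dKO. A stretch at chr7:16880001-17060000 that the study listed for stronger chromatin contacts in dKO covers Bbc3, and its islands held 38811 counts in WT and 27690 in dKO, a log2 ratio of 0.03 (0.01 to 0.05).

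Other genes of the family were counted in the same way. Of 16 further BCL2 family genes, 15 had islands in each list, and their median log2 window ratio was -0.17. Pmaip1, which encodes the BH3-only protein Noxa, had 58.4 CPM in WT and 109 in dKO, a ratio of 0.90 (0.85 to 0.96), with a depth ratio of 0.18. Bcl2l14 had 113 and 198, a ratio of 0.81 (0.77 to 0.85) with a depth ratio of 0.15. In the other direction, Bcl2l15 had 445 and 207, a ratio of -1.10 (-1.13 to -1.07), and was the only one past the threshold by depth, at -0.81. Its promoter island went the opposite way, with 979 counts in WT and 1007 in dKO, a ratio of 0.56 (0.43 to 0.69). The lower window count of Bcl2l15 in dKO thus lay in other islands of the window. The promoter ratios of Pmaip1, Bcl2l14 and Bcl2a1b had the sign of their window ratios. Bcl2a1b had 534 counts in WT and 158 in dKO, a ratio of -1.24 (-1.49 to -0.98), and Bcl2a1a had no island in either list. The Bcl2a1 genes are near-identical copies whose reads may not map uniquely, so their values are uncertain. Thus 2 of 15 passed with the higher value in dKO and 2 with the higher value in WT, beside 11.5% of all genes each way.

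Downstream of the family, 19 genes of the apoptosis machinery had a median log2 window ratio of -0.06. Fasl, the ligand that triggers the death receptor Fas, had 78.2 CPM in WT and 164 in dKO, a ratio of 1.07 (1.02 to 1.11), and was the only one with a depth ratio past the threshold in the direction of dKO, at 0.60. Casp9, the initiator caspase of the mitochondrial pathway, had 0.64 (0.58 to 0.70) by counts but -0.71 by depth. Birc6 passed by depth alone, at -0.64. The genes of the caspase inhibitor Xiap and of Aifm1 had lower counts in dKO, at -0.86 and -1.25, but both lie on chromosome X, where the median log2 ratio of regions with islands in both lists was -0.53. In all, 2 of 19 passed by counts with the higher value in dKO and 2 with the higher value in WT, beside 11.5% of all genes each way.

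Of 6 regulators of the family, 1 passed by counts, with the higher value in WT, beside 11.5% of all genes in that direction. Il7r, which encodes the IL-7 receptor subunit that maintains Bcl2 in naive T cells, had 18981 counts in WT and 8726 in dKO, or 230 and 151 CPM, with a log2 ratio of -0.60 (-0.64 to -0.56) and a depth ratio of -0.37. The other 5, Trp53, Foxo1, Foxo3, Ddit3 and E2f1, did not pass in either direction.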

How the data were processed

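H3K27ac ChIP-seq reads of sorted naive CD8+ T cells were aligned by the authors to mm9 with Bowtie2 2.2.5 after FastQC, reads of low mapping quality were removed, replicates were pooled, and islands were called with SICER 1.1. Removal of duplicates is not given in the sources used here. The deposited island files give the count of reads in each island, with no value per replicate.

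Here islands were assigned to genes of GENCODE M1 (NCBIM37) from the gene body to 50 kb upstream of the 5′-most TSS, with whole islands that overlap by at least 1 bp. Promoter islands touch 1 kb either side of any annotated TSS. Counts were divided by the island total of their list. Ratios carry 95% Wilson counting intervals, which assume independent reads. No test across samples was possible. Genes named beyond the 9 members are those past a ratio of 1.5 by window counts or depth, or without an island. Islands named are promoter islands, the one with most counts and those in 1 list. Scripts ran in Python 3.11.15 with NumPy 2.4.6, figures were drawn with matplotlib 3.10.9, and scripts were tested on simulated data. The members and lists were chosen with earlier results of these data known. Alternatives covered scaling, window, edges, neighbouring genes, filters, thresholds, overlap and stitching. One gene of the wider apoptosis list is not reported here and was left out of its counts.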

Additional observations from a re-analysis of the deposited data

How the results depend on the processing

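The count of members past the threshold depended on the window. With the higher value in dKO, 1 member passed as reported. That number was 2 with either other scaling (to regions with islands in both lists, or to their median ratio), 0 per covered kb, 2 for the gene body alone, 4 at 20 kb upstream, 0 at 100 kb, 2 for promoter islands, 0 with islands clipped to the window, 2 with islands of at least 5 CPM, 0 over whole merged regions (chosen after seeing the data) and 3 at the lower threshold ratio that was tried. With the higher value in WT, 0 passed as reported, 2 for promoter islands and 1, Bax, for islands nearest to the member. At Bax that setting leaves out the dKO promoter island. The shares of all genes given above cover the window as reported, promoter islands and values per covered kb. For the other settings no such share is given, so their counts cannot be set beside one. The members' median log2 ratio of 0.15 became 0.22 with either other scaling, -0.061 per covered kb, -0.087 for the gene body, 0.35 at 20 kb, 0.017 at 100 kb, 0.19 clipped and 0.056 over merged regions. Either other scaling raises every log2 ratio by 0.07 and changed the sign of no member's window ratio.

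Among ratios past the threshold, signs reversed at Bax for the window per covered kb (-0.10) and for nearest islands (-2.34). The latter value leaves out the dKO promoter island of Bax, whose midpoint lies nearer to another gene. Per covered kb, signs also reversed at the promoters of Bcl2 (0.095), Bcl2l1 (0.40), Bax (-0.91) and Bbc3 (-0.30). Among ratios short of it, examples of a change of sign were Bmf at 100 kb (-0.35), Bbc3 per covered kb (-0.17), Bid (-0.18) and Bak1 (-0.15) for the gene body, and the Bak1 promoter per covered kb (-0.58). Nearest islands gave no ratio for Mcl1 and Bak1. The share of islands found in both lists fell to 57.6% in WT and 54.8% in dKO with 50% reciprocal overlap, and was 100% in dKO after joining islands within 5 kb. Bcl2 stayed below 0 in all 13 window alternatives. Of the pro-apoptotic genes, 6 of 6 stayed above 0 with both scalings, at 20 kb, with both count filters, with added pseudocounts and over merged regions, 5 of 6 clipped or for promoter islands, 4 of 5 for nearest islands, 4 of 6 for the gene body or 100 kb, and 2 of 6 per covered kb. Of the survival genes, 2 of 3 were above 0 clipped or at 100 kb, 0 of 3 for the gene body, at 20 kb or for promoter islands, 0 of 2 for nearest islands, and 1 of 3 otherwise.

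No paired analysis was possible because the lists hold pooled replicates, and leaving out single replicates was not run for the same reason. WT islands held 82668007 counts and dKO islands 57665047, and whether the splitting of the Bcl2 and Bcl2l1 islands moves with depth was not tested. Input was not subtracted.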
